A study of Homo sapiens with 8 samples.

Results

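The genes followed here are 44 genes of DNA replication, mitosis and cell cycle control, taken by symbol from a list and matched to the Ensembl identifiers of 57773 counted genes. They were divided by role into 16 replication genes, 13 mitosis genes and 15 G1 control genes, the last being cyclins D and E, their kinases and inhibitors, and the factors RB1, E2F1, E2F2 and MYC. All 44 were found in the count files, and 42 passed the expression filter that admitted 23474 genes to testing. RNA was sequenced from H9, an established human embryonic stem cell (hESC) line grown in mTeSR1 medium, in 4 conditions with 2 replicates each. WT cells were untreated and carried an HA tag on the endogenous CHD7 gene, which encodes a chromatin remodeler. CHD7 knockout cells (CHD7 -/-) were untreated. The paper describes knockouts by InDel mutations and by an inserted stop codon, and states that the stop codon was used for the experiments it then reports. The sample labels name neither. HERVH knockdown cells had the WT genotype with CHD7-HA and were exposed for 24 h to LNA-GapmeRs, antisense oligonucleotides against the transcripts of the endogenous retrovirus family HERVH. HERVH element deleted cells were untreated and lacked an HERVH copy on chromosome 2. Because the WT cells were not transfected, dissociation and lipofection cannot be told apart from loss of HERVH RNA, and in the edited lines the history of the clones cannot be told apart from the genotype. Nothing states that the replicates came from separate cultures, so the p-values measure only the spread between these samples.

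A dividing cell licenses its replication origins in G1 by loading the MCM2 to MCM7 helicase with the help of ORC1 and CDC6, copies its DNA in S phase, and then builds up cyclin B and CDK1 activity to enter mitosis. E2F factors, held back by RB1 until cyclin D and cyclin E kinases act, drive the S phase genes, whereas the mitosis genes are switched on later in the cycle through promoter elements that include CCAAT boxes and the cell cycle homology region (CHR). Human embryonic stem cells are known for fast cycles with a short G1 phase. In bulk RNA, fewer cells in a phase and less RNA per cell cannot be told apart.

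Promoters are shown, so that the letters of these elements can be seen, for 4 genes that recur below: PCNA and RRM2 of the replication class, and TOP2A and CCNB2 of the mitosis class. The sequences are the 200 bases before a RefSeq start site on GRCh38.p14, written 5′ to 3′ on the strand of the gene, and PCNA and RRM2 have a further start site that is not printed. Capitals mark matches, on either strand, to the E2F letters (TTTCCCGC, TTTGGCGC, TTTCGCGC or TTTGCCGC), the CHR letters TTTGAA or the CCAAT letters, which do not overlap one another in these stretches. They lie at chr20:5126623-5126822 (minus strand), chr2:10122539-10122738 (plus strand), chr17:40417897-40418096 (minus strand) and chr15:59104946-59105145 (plus strand).
PCNA: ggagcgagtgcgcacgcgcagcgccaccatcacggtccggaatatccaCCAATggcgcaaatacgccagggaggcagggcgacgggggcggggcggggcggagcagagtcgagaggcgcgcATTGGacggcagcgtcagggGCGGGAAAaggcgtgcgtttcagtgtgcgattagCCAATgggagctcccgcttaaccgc
RRM2: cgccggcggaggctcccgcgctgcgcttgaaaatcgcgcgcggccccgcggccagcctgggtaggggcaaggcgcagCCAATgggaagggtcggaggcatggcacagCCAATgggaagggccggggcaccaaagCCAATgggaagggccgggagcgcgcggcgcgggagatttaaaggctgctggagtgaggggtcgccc
TOP2A: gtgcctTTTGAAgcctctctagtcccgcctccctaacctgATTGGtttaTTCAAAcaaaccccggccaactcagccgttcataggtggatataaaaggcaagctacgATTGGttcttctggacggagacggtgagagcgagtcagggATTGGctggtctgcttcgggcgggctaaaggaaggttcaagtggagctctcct
CCNB2: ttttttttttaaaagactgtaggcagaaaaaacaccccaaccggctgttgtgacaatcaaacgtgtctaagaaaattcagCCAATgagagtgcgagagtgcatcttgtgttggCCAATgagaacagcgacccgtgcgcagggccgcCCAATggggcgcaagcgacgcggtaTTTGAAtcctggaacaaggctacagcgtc
The stretch of PCNA held 1 E2F match and 3 CCAAT matches, and that of RRM2 held 3 CCAAT matches and none of the E2F letters. TOP2A had 2 CHR matches and CCNB2 had 1, each beside 3 CCAAT matches. Over the window from 250 bases before to 50 bases after the start, the E2F letters were present for 10 of the 14 replication genes with a RefSeq entry, 1 of 11 mitosis genes and 2 of 10 G1 control genes, against 3.99% of 27305 genes. CHR letters were found for 7 of 11 mitosis genes, 1 of 14 replication genes and 0 of 10 G1 control genes, against 18.2% of all genes. CCAAT was held by 12, 11 and 4 genes of the replication, mitosis and G1 control classes, against 39.7% of all genes. A match is a description of the letters in this window, not a mapped binding site.

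Reads counted on genes ranged from 14802049 to 23156445 per library, so that 3 counts corresponded to between 0.128 and 0.219 CPM (counts scaled to the library size, with TMM factors). CHD7 RNA was 651.0 and 649.5 CPM in WT cells and 197.3 and 197.2 CPM in CHD7 knockout cells. The pluripotency genes POU5F1, SOX2, NANOG and LIN28A were expressed in every library, with NANOG between 64.4 and 87.0 CPM, whereas 4 of the 10 lineage markers listed (SOX1, HAND1, GATA6 and SOX17) stayed at or below 0.215 CPM in every library. TBXT, MIXL1, PAX6 and AFP were low, with at most 3.21 CPM in any library. FOXA2, an endoderm factor, was at 1.39 and 4.96 CPM in WT, 0.324 and 0.699 CPM in CHD7 knockout, 10.3 and 9.69 CPM in HERVH knockdown and 3.98 and 5.07 CPM in HERVH element deleted libraries. edgeR called FOXA2 lower than WT in CHD7 knockout cells, by -2.64 on the log2 scale (FDR = 0.0317), and higher in HERVH knockdown than in CHD7 knockout cells (4.30, FDR = 0.00055). NES, an intermediate filament gene listed with the ectoderm markers, was higher in both CHD7 knockout libraries (604.5 and 470.5 CPM) and both HERVH knockdown libraries (396.3 and 730.6 CPM) than in WT cells (272.3 and 306.0 CPM), and the part of these shifts in NES and FOXA2 in any difference below was not tested. The log2 fold change of NES was 0.96 in HERVH knockdown cells (FDR = 0.0474 by edgeR). In CHD7 knockout cells it was 0.89 and not called (FDR = 0.0725 by edgeR). The 10 nearest expressed genes to NES, on chromosome 1, were all higher in CHD7 knockout cells, with a median log2 change of 0.52. Whether this neighborhood accounts for the difference of NES was not tested. The HERVH knockdown replicates stood further apart than those of any other condition, with a median SD of log2 CPM of 0.254 over 12704 genes against 0.125 in WT, 0.111 in CHD7 knockout and 0.0821 in HERVH element deleted cells. This spread enters every test, because all 8 libraries shared 1 fit.

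In WT cells most replication and mitosis genes were abundant and the inhibitors scarce per exonic length. Levels between genes were compared as RPKM, that is CPM per kilobase of merged exons. PCNA, the sliding clamp of the replication fork, was the highest at 150.9 ± 6.96 RPKM (SD, n = 2), followed by the helicase subunit MCM3 at 137.4 ± 11.3 RPKM (SD, n = 2) and the topoisomerase TOP2A at 121.1 ± 24.9 RPKM (SD, n = 2). The order of these 3 genes is not separated from the spread between replicates. The lowest replication gene was GINS2, a subunit of the replicative helicase, at 6.43 ± 0.681 RPKM (SD, n = 2), and the lowest mitosis gene was the survivin gene BIRC5 at 7.69 ± 0.387 RPKM (SD, n = 2).
Among the D-type cyclins, CCND2 (69.1 ± 6.60 RPKM, SD, n = 2) and CCND1 (47.6 ± 6.19 RPKM, SD, n = 2) lay far above CCND3 (3.74 ± 0.125 RPKM, SD, n = 2). Cyclin E was present mostly as CCNE1, at 17.8 ± 1.87 RPKM (SD, n = 2), while CCNE2 was at 1.02 ± 0.0431 RPKM (SD, n = 2), the lowest level among the genes tested here. Per exonic length the kinase genes followed the order CDK4, CDK2 and CDK6, at 20.2 ± 4.95, 5.71 ± 0.102 and 5.35 ± 0.177 RPKM (SD, n = 2 each). CDK2 and CDK6 were close to each other on this scale. The merged exons of CDK6 span 12239 bases, and in CPM the WT means were 62.6, 22.2 and 65.5 in the same order.
Of the 3 inhibitors, CDKN1B, encoding p27, was the sole one tested, at 3.005 ± 0.676 RPKM (SD, n = 2) in WT cells. The merged exons of CDKN1B span 9255 bases. In CPM its WT mean of 27.8 was above those of the replication genes GINS2 (20.7) and TYMS (23.7). CDKN2A, encoding p16 and p14ARF, had 2 and 10 counts in WT, 2 and 0 in CHD7 knockout, 7 and 0 in HERVH knockdown and 2 and 3 in HERVH element deleted libraries. CDKN2C, encoding p18, had 0 counts in 7 libraries and 1 count in HERVH element deleted replicate 1, which is under the 3 counts that a count of 0 allows. No fold was computed for these 2 genes. Reads ambiguous between genes were not counted, and whether that lowered the counts of these 2 was not tested.

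**Figure D1:**
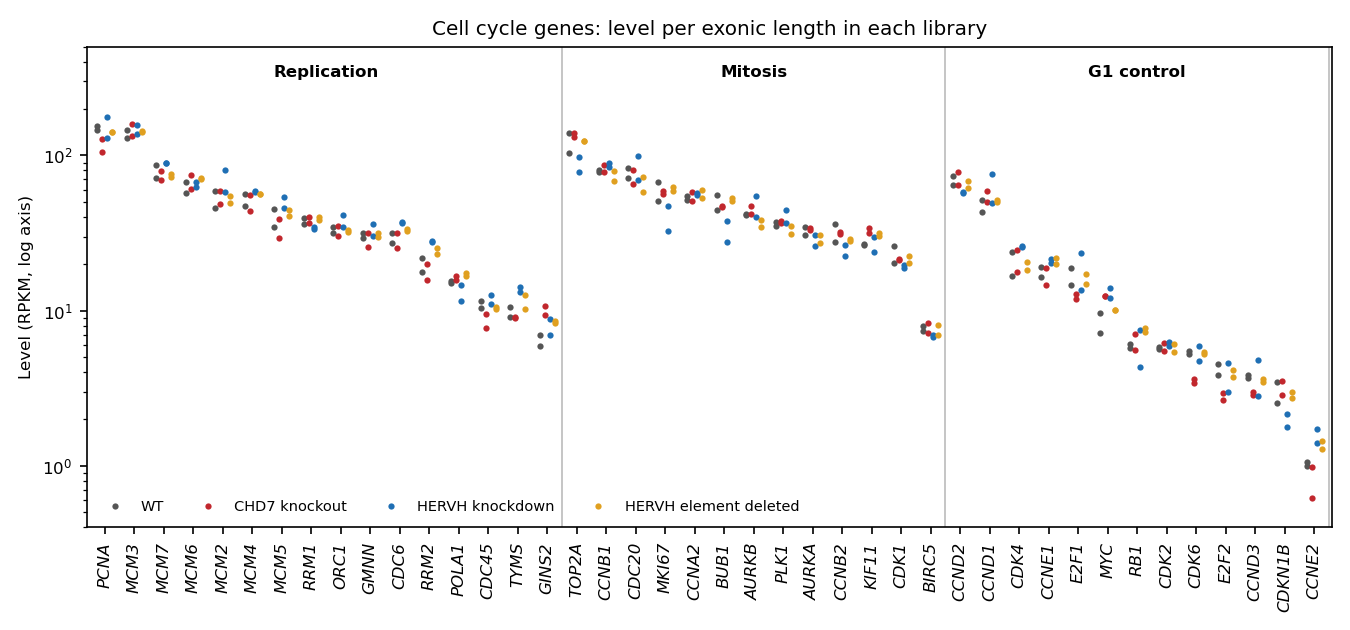
Level of the 42 tested genes in each library, as RPKM on a log axis, sorted within each class by the WT mean. Each point is 1 library and color gives the condition. PCNA is the highest at 150.9 RPKM in WT cells. Among the G1 control genes CCND2 and CCND1 lie within the range of the replication and mitosis genes, and CCNE2 and CDKN1B lie at the bottom.

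The first question was whether loss of CHD7, knockdown of HERVH or deletion of an HERVH element moved these genes away from WT. No gene of the 42 tested passed an FDR below 0.05 in any of the 3 comparisons against WT with the quasi-likelihood test of edgeR, and none met the DEG rule of the study (FDR below 0.01 and at least 2-fold). Over all 23474 genes, the FDR threshold was passed by 1.81% in CHD7 knockout cells, 2.15% in HERVH knockdown cells and 0.0724% in HERVH element deleted cells, and the DEG rule by 0.571%, 0.217% and 0.0298%. At an unadjusted p below 0.05 there were 5 of the 42 genes (11.9%) in CHD7 knockout cells, 9 (21.4%) in HERVH knockdown cells and 0 in HERVH element deleted cells, against 10.9%, 19.0% and 2.63% of all genes tested. These shares are near the background or under it. DESeq2 called 1 gene (GINS2) in CHD7 knockout cells, 2 (MYC and BUB1) in HERVH knockdown cells and 0 in HERVH element deleted cells, against 3.59%, 7.36% and 0.0852% of all genes to which it gave an adjusted p.
A test for any difference among the 4 conditions called 0 of the 42 genes in edgeR against 6.45% of all genes, with 10 genes (23.8%) at an unadjusted p below 0.05 against 21.7% of all genes. DESeq2 called 4 in that test (CDK6, MYC, BUB1 and RRM2), against 13.1% of all genes with an adjusted p. Log2 fold changes against WT ran from -0.60 to 0.65 in CHD7 knockout cells, from -0.62 to 0.63 in HERVH knockdown cells and from -0.24 to 0.41 in HERVH element deleted cells. The 95% interval of the fold change lay within 2-fold of WT in either direction for 40, 39 and 41 of the 42 genes in these 3 comparisons, with a median interval width of 0.36 on each side of the log2 fold change. Smaller differences were not resolved with 2 replicates.
The calls changed with the libraries in the fit, over all genes as well as in the list. Without HERVH knockdown replicate 1 there were 8 calls in HERVH knockdown cells, 4 in CHD7 knockout cells and 17 in the test over all conditions, against 15.8%, 5.81% and 23.4% of all genes in those fits. Without HERVH knockdown replicate 2 there were 2, 5 and 5 calls in the same order, against 7.85%, 5.81% and 12.9% of all genes.

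**Figure D2:**
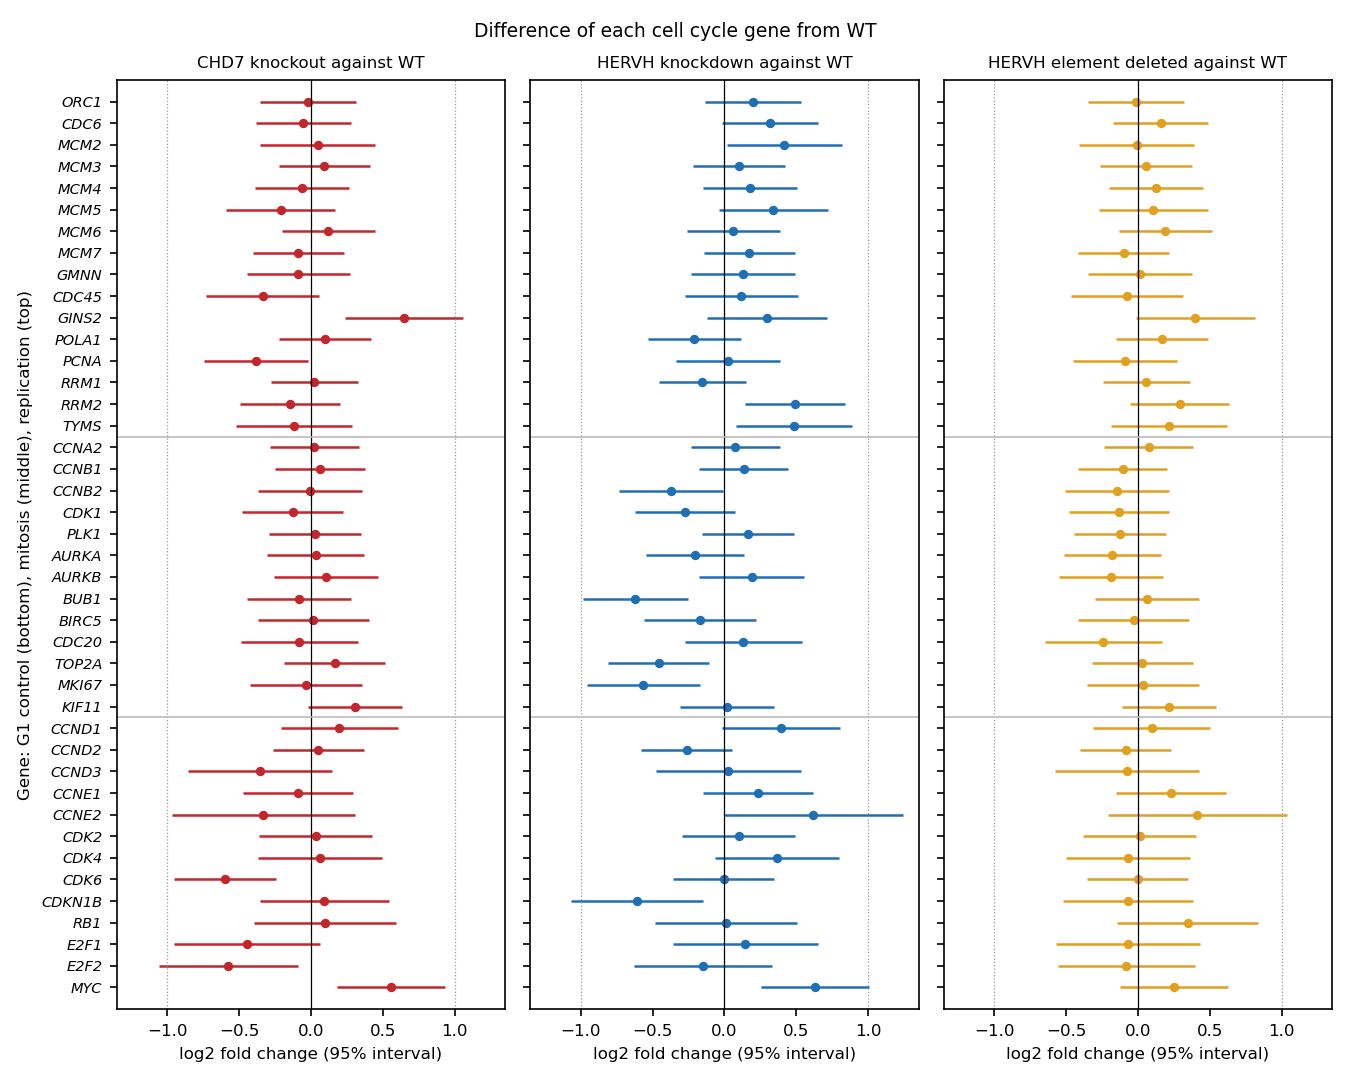
Log2 fold change of the 42 tested genes against WT in each perturbed condition, from edgeR, with 95% intervals. The solid vertical line is no difference and the dotted lines are 2-fold in each direction. Most intervals cross 0 and all but 2, 3 and 1 genes lie wholly within the dotted lines, from left to right.

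Among the replication genes, CHD7 knockout cells had 6 genes above WT and 10 below, with a median log2 fold change of -0.06 against -0.01 over all genes tested. The largest difference was in GINS2, with 19.2 and 22.3 CPM in WT libraries, 34.6 and 30.3 CPM in CHD7 knockout, 22.4 and 28.5 CPM in HERVH knockdown and 26.9 and 27.7 CPM in HERVH element deleted libraries. Both CHD7 knockout libraries were above all the others. The log2 fold change was 0.65 (SE 0.192, FDR = 0.130 by edgeR), and the call was made in DESeq2, in the 4-library fit and after GC correction.
GINS2 lies on chromosome 16 (16:85709804-85723679, minus strand, GRCh37), and its expressed neighbors moved too. The 5 nearest expressed genes with lower coordinates had a median log2 change of 0.98 in CHD7 knockout cells, and the 5 with higher coordinates one of -0.39. The difference of GINS2 therefore coincided with a shift of the genes beside it on 1 side, and whether the shift accounts for it was not tested. For the other genes of the list, the median over the 10 nearest expressed genes in CHD7 knockout cells lay between -0.20 and 0.13.
PCNA went the other way, with 204.7 and 218.5 CPM in WT, 177.8 and 147.5 CPM in CHD7 knockout, 181.3 and 248.5 CPM in HERVH knockdown and 197.5 and 199.5 CPM in HERVH element deleted libraries. Its log2 fold change in CHD7 knockout cells was -0.38 (SE 0.169, FDR = 0.424 by edgeR).

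In HERVH knockdown cells 14 of the 16 replication genes were above WT, with a median log2 fold change of 0.18 against 0.04 over all genes tested, and the exceptions were POLA1 and RRM1. POLA1 is the catalytic subunit of DNA polymerase alpha, and RRM1 is the large subunit of ribonucleotide reductase, which makes deoxynucleotides. RRM2, the small subunit of the same enzyme, was the gene with the largest difference of the class. RRM2 was at 161.8 and 199.0 CPM in WT, 182.0 and 143.9 CPM in CHD7 knockout, 251.6 and 255.3 CPM in HERVH knockdown and 210.9 and 230.6 CPM in HERVH element deleted libraries. The HERVH knockdown libraries were the highest of the 8 and did not overlap any other condition.
The log2 fold change of RRM2 was 0.49 in HERVH knockdown cells (SE 0.161, FDR = 0.129 by edgeR) and 0.29 in HERVH element deleted cells (SE 0.161, FDR = 1 by edgeR). RRM1, in contrast, was at 166.4 and 152.7 CPM in WT and 145.9 and 141.1 CPM in HERVH knockdown libraries. TYMS, the thymidylate synthase gene, had 21.9 and 25.5 CPM in WT, 21.5 and 22.1 CPM in CHD7 knockout, 31.9 and 34.3 CPM in HERVH knockdown and 24.8 and 30.3 CPM in HERVH element deleted libraries, with a log2 fold change of 0.48 in HERVH knockdown cells (SE 0.187, FDR = 0.183 by edgeR). MCM2 was the sole further replication gene with an unadjusted p below 0.05 in HERVH knockdown cells, and most of its difference was in replicate 2, at 382.2 CPM against 274.7 CPM in replicate 1 and 215.2 and 277.0 CPM in WT libraries.
The other helicase subunits MCM3 to MCM7 had log2 fold changes between 0.06 and 0.34 in HERVH knockdown cells, between -0.21 and 0.12 in CHD7 knockout cells and between -0.10 and 0.19 in HERVH element deleted cells, and none passed the test. In HERVH element deleted cells 11 of the 16 replication genes were above WT, with a median of 0.08 against -0.02 over all genes, and GINS2 had the largest difference at 0.40 (SE 0.192, FDR = 1 by edgeR).

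Of the 13 mitosis genes none passed the test against WT in any condition, and the largest differences were those of BUB1 and MKI67 in HERVH knockdown cells. MKI67, the gene of the proliferation antigen Ki-67, was at 868.0 and 652.5 CPM in WT, 724.1 and 759.1 CPM in CHD7 knockout, 607.9 and 420.5 CPM in HERVH knockdown and 760.3 and 799.0 CPM in HERVH element deleted libraries. BUB1, a kinase of the spindle checkpoint, was at 348.9 and 281.0 CPM in WT, 299.2 and 295.0 CPM in CHD7 knockout, 236.6 and 173.3 CPM in HERVH knockdown and 336.9 and 320.6 CPM in HERVH element deleted libraries. For both genes the HERVH knockdown libraries were the lowest of the 8, and replicate 2 was lower than replicate 1.
BUB1 had a log2 fold change of -0.62 (SE 0.169, FDR = 0.0738 by edgeR) and that of MKI67 was -0.56 (SE 0.182, FDR = 0.125 by edgeR). Without HERVH knockdown replicate 1 these values were -0.91 for both and were called, and without replicate 2 they were -0.42 and -0.33 and were not. Without WT replicate 1 the value of MKI67 was -0.34. TOP2A, which untangles DNA before chromosomes separate, had 884.3 and 659.9 CPM in WT, 844.0 and 889.0 CPM in CHD7 knockout, 625.1 and 500.9 CPM in HERVH knockdown and 788.3 and 788.8 CPM in HERVH element deleted libraries. The WT replicates of TOP2A stood apart, the lower being close to the higher HERVH knockdown library, and its log2 fold change in HERVH knockdown cells was -0.46 (SE 0.163, FDR = 0.156 by edgeR). CCNB2, a B-type cyclin, had a log2 fold change of -0.37 (SE 0.169, FDR = 0.252 by edgeR).
The mitosis genes were divided. In HERVH knockdown cells 6 of the 13 were above WT and 7 below, with a median log2 fold change of -0.17. CCNB1, CCNA2, PLK1, AURKB, CDC20 and KIF11, which encode cyclins, mitotic kinases, an activator of the anaphase-promoting complex and a spindle motor, had values between 0.02 and 0.19. Merged exons of BUB1, MKI67 and TOP2A had GC contents of 40.6%, 48.2% and 38.7%. After correction for GC content the log2 fold changes of BUB1 and MKI67 were -0.53 and -0.58, and edgeR then called both (FDR = 0.0253 and 0.0387).
In CHD7 knockout cells the largest difference of the class was in KIF11, with 142.5 and 140.4 CPM in WT, 182.2 and 167.8 CPM in CHD7 knockout, 159.4 and 126.9 CPM in HERVH knockdown and 160.6 and 168.5 CPM in HERVH element deleted libraries. Its log2 fold change was 0.31 in CHD7 knockout cells (SE 0.152, FDR = 0.504 by edgeR) and 0.22 in HERVH element deleted cells (SE 0.152, FDR = 1 by edgeR). TOP2A followed in CHD7 knockout cells at 0.17 (SE 0.163, FDR = 0.839 by edgeR), a direction that turned to -0.03 without WT replicate 2. CDC20 had the largest difference of the class in HERVH element deleted cells, with 117.1 and 145.9 CPM against 144.6 and 165.8 CPM in WT libraries and a log2 fold change of -0.24 (SE 0.189, FDR = 1 by edgeR), and the WT and deleted libraries overlapped.

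The G1 control genes held the widest range of differences. CDK6, a partner kinase of the D-type cyclins, was at 63.95 and 67.02 CPM in WT, 44.5 and 42.0 CPM in CHD7 knockout, 72.4 and 58.0 CPM in HERVH knockdown and 64.7 and 66.15 CPM in HERVH element deleted libraries. The CHD7 knockout libraries were the lowest of the 8, and they did not overlap any other condition. The log2 fold change was -0.60 (SE 0.164, FDR = 0.0982 by edgeR), the lowest FDR of the list in CHD7 knockout cells, and GC correction gave -0.66 (FDR = 0.00751 by edgeR). In contrast, CDK6 had a log2 fold change of -0.01 in HERVH knockdown cells (SE 0.164, 95% interval -0.36 to 0.35).
CDK4, which shares the cyclin D partners of CDK6, was at 51.8 and 73.5 CPM in WT and at 75.75 and 55.1 CPM in CHD7 knockout libraries, so the groups overlapped. E2F2, an activator of S phase genes, was at 20.9 and 24.7 CPM in WT, 16.0 and 14.5 CPM in CHD7 knockout, 16.3 and 24.9 CPM in HERVH knockdown and 22.7 and 20.4 CPM in HERVH element deleted libraries. Its log2 fold change in CHD7 knockout cells was -0.58 (SE 0.225, FDR = 0.312 by edgeR), and that of the related E2F1 was -0.44 (SE 0.235, FDR = 0.560 by edgeR). The replication genes, which E2F factors are known to drive, were divided in these cells, with 6 above WT and 10 below.
MYC, a transcription factor that promotes growth and entry into the cycle, was at 44.01 and 59.0 CPM in WT, 75.4 and 76.0 CPM in CHD7 knockout, 86.0 and 73.3 CPM in HERVH knockdown and 61.6 and 61.2 CPM in HERVH element deleted libraries. All 6 libraries of the perturbed conditions were above both WT libraries. The log2 fold change was 0.56 in CHD7 knockout cells (SE 0.175, FDR = 0.159 by edgeR) and 0.63 in HERVH knockdown cells (SE 0.175, FDR = 0.0782 by edgeR). These comparisons share the WT libraries, so a high or low WT value moves them together.
CCNE2 was at 4.62 and 4.35 CPM in WT, 4.34 and 2.74 CPM in CHD7 knockout, 7.56 and 6.19 CPM in HERVH knockdown and 5.64 and 6.31 CPM in HERVH element deleted libraries. The log2 fold change was 0.62 in HERVH knockdown cells (SE 0.290, FDR = 0.267 by edgeR) and 0.41 in HERVH element deleted cells (SE 0.289, FDR = 1 by edgeR), and the low counts gave it the widest intervals of the list. CDKN1B, which restrains cyclin E and CDK2, was at 32.2 and 23.4 CPM in WT, 32.7 and 26.6 CPM in CHD7 knockout, 16.5 and 20.03 CPM in HERVH knockdown and 25.3 and 27.8 CPM in HERVH element deleted libraries. The HERVH knockdown libraries were the lowest of the 8, with a log2 fold change of -0.61 (SE 0.214, FDR = 0.1498 by edgeR). RB1, the pocket protein that holds E2F factors in check, was at 39.2 and 36.7 CPM in WT and 49.4 and 46.9 CPM in HERVH element deleted libraries, and the log2 difference between the groups was 0.34 (SE 0.229, FDR = 1 by edgeR). The D-type cyclin CCND1 had 205.6 and 247.3 CPM in WT and 235.9 and 359.9 CPM in HERVH knockdown libraries, where the replicates differed more than the conditions.

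**Figure D3:**
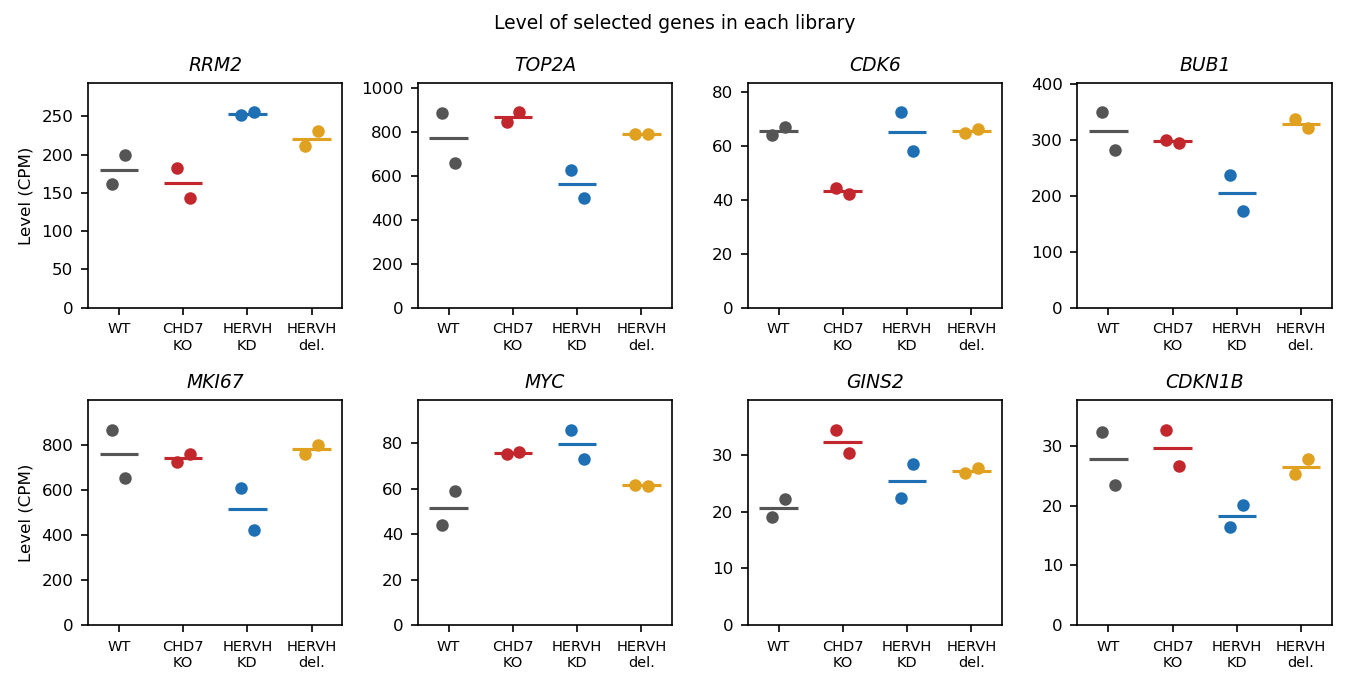
Level in CPM of 8 genes in each of the 8 libraries, with axes from 0. Points are libraries and horizontal lines are means of 2 replicates. The HERVH knockdown libraries are the highest for RRM2 and the lowest for TOP2A, BUB1, MKI67 and CDKN1B, and the CHD7 knockout libraries are the lowest for CDK6 and the highest for GINS2.

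A direct comparison asked whether HERVH knockdown and CHD7 knockout cells differed from each other in these genes. edgeR called 3 of the 42 (7.14%) at an FDR below 0.05 against 9.44% of all genes tested, so the share was not above the background. RRM2 was higher in HERVH knockdown cells, by a log2 fold change of 0.64 (SE 0.161, FDR = 0.0268 by edgeR). TOP2A was lower, by -0.62 on the same scale (SE 0.164, FDR = 0.0318 by edgeR), and CDK6 was higher, by 0.59 (SE 0.165, FDR = 0.0389 by edgeR). Each of the 3 comes from a different class, and in each the libraries of these conditions did not overlap.
Against WT, the log2 fold changes in CHD7 knockout and HERVH knockdown cells were -0.60 and -0.01 for CDK6, -0.15 and 0.49 for RRM2, and 0.17 and -0.46 for TOP2A, of which none passed the test. The point estimates thus lay on opposite sides of WT for RRM2 and TOP2A and mainly on the CHD7 knockout side for CDK6. The next genes, none of them called by edgeR, were CDKN1B (-0.70, FDR = 0.0554), CCNE2 (0.95, FDR = 0.0592), TYMS (0.60, FDR = 0.0602), BUB1 (-0.53, FDR = 0.0636) and MCM5 (0.55, FDR = 0.0672). At an unadjusted p below 0.05 there were 14 of 42 genes (33.3%) against 25.8% of all genes. DESeq2 called 7 genes, which included RRM2, TOP2A and CDK6, against 13.6% of all genes with an adjusted p.
The number of calls moved with the libraries in the fit. It was 0 in the fit of these 4 libraries alone, against 4.07% of all genes. With a replicate of CHD7 knockout, HERVH element deleted or WT cells left out it fell as well, as did the share of all genes called. Without HERVH knockdown replicate 1 it was 19, against 23.4% of all genes, and the log2 fold change of CDK6 was then 0.36 and not called (FDR = 0.0907 by edgeR). Without HERVH knockdown replicate 2 it was 5, against 10.7% of all genes. With GC correction it was 6, against 15.2% of all genes, and TOP2A then fell by 0.43 on the log2 scale and was no longer called (FDR = 0.0510 by edgeR).
No gene of the list was called by edgeR between HERVH knockdown and HERVH element deleted cells or between CHD7 knockout and HERVH element deleted cells, where 1.33% and 2.66% of all genes were, with 9 (21.4%) and 4 (9.52%) of 42 genes at an unadjusted p below 0.05 against 19.1% and 12.2% of all genes. The lowest FDRs in these comparisons were those of BUB1 (log2 fold change -0.68, FDR = 0.0654 by edgeR) and CDK6 (-0.60, FDR = 0.0814 by edgeR). Against WT the values of BUB1 in HERVH knockdown cells and CDK6 in CHD7 knockout cells were -0.62 and -0.60.

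Set side by side, the classes differed most in HERVH knockdown cells. The summed level of the 16 replication genes was 3153 and 3639 CPM in WT, 3627 and 3012 CPM in CHD7 knockout, 3678 and 3976 CPM in HERVH knockdown and 3538 and 3628 CPM in HERVH element deleted libraries. The 13 mitosis genes summed to 3321 and 2787 CPM in WT, 3159 and 3147 CPM in CHD7 knockout, 2659 and 2370 CPM in HERVH knockdown and 2965 and 3123 CPM in HERVH element deleted libraries. The HERVH knockdown libraries thus had the highest replication sums and the lowest mitosis sums of the 8.
The ratio of the mitosis sum to the replication sum was 1.05 and 0.766 in WT, 0.871 and 1.04 in CHD7 knockout, 0.723 and 0.596 in HERVH knockdown and 0.838 and 0.861 in HERVH element deleted libraries. It was lowest in the HERVH knockdown libraries, at a distance from the lower WT library that was smaller than the distance between the WT libraries. After GC correction the HERVH knockdown ratios were 0.709 and 0.651, against 1.04 and 0.778 in WT. TOP2A and MKI67 carry much of the mitosis sum, and without them the ratio was 0.388 and 0.364 in HERVH knockdown and between 0.400 and 0.498 in the other 6 libraries. In each HERVH knockdown library the median difference from the WT mean was above 0 for replication genes and below 0 for mitosis genes with TMM scaling, with RLE scaling and after GC correction. After GC correction the mitosis median of HERVH knockdown replicate 2 was only -0.005. The same signs were seen in HERVH element deleted replicate 1 (0.07 and -0.16 with TMM scaling), so they were not particular to HERVH knockdown cells. WT replicate 2 had them too (0.11 and -0.05). Because the WT mean includes that library, the WT replicates always lie equally far on opposite sides of 0.
Part of this contrast was also seen between replicates of 1 condition. WT replicate 2 was above WT replicate 1 for 14 of 16 replication genes and 4 of 13 mitosis genes, and CHD7 knockout replicate 2 was below replicate 1 for 15 of 16 replication genes. For replication genes, the median difference of 0.18 in HERVH knockdown cells is therefore of the size seen between the WT replicates. The replication medians of these replicates lay 0.109 on either side of their mean. For mitosis genes the WT medians lay 0.051 on either side with TMM scaling. The mitosis medians were -0.14 and -0.16 in the HERVH knockdown libraries, and -0.16 and 0.002 in the HERVH element deleted libraries.
Both HERVH knockdown libraries lay outside the WT range for 25 of the 42 genes (59.5%), 15 of them higher and 10 lower, against 44.8% of all genes tested. The same count was 12 (28.6%) in CHD7 knockout cells against 43.9% of all genes, and 14 (33.3%) in HERVH element deleted cells against 38.0% of all genes. Between HERVH knockdown and CHD7 knockout cells, 27 genes (64.3%) did not overlap, against 49.9% of all genes. The 8 mitosis genes among these 27 were all lower in HERVH knockdown cells, and of the 11 replication genes 8 were higher.

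**Figure D4:**
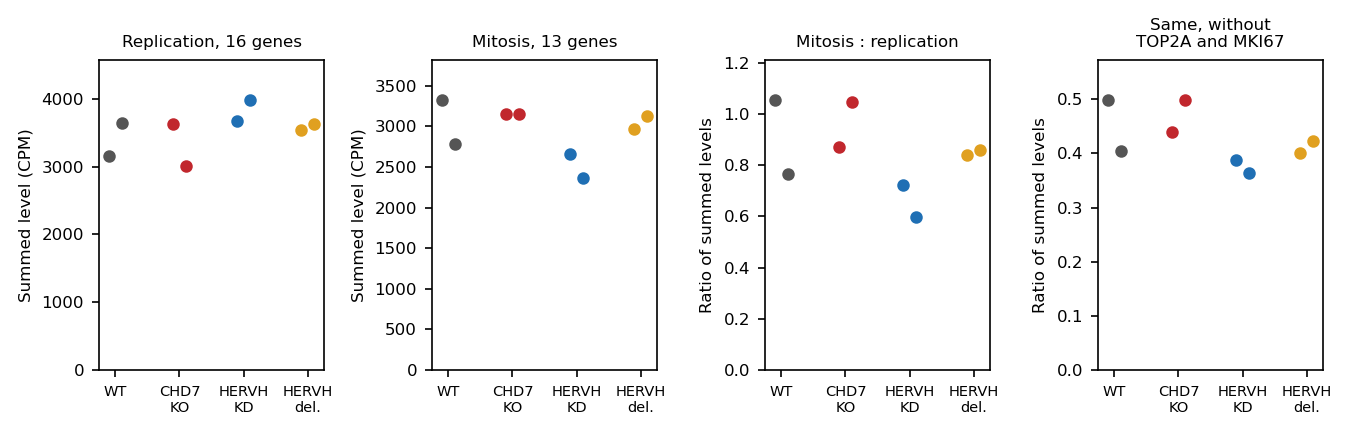
Summed level in CPM of the replication and mitosis genes, and the ratio of the sums with all genes and without TOP2A and MKI67, by library and with axes from 0. The HERVH knockdown libraries have the lowest ratios, 0.723 and 0.596, and the WT libraries are spread from 0.766 to 1.05.

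**Figure D5:**
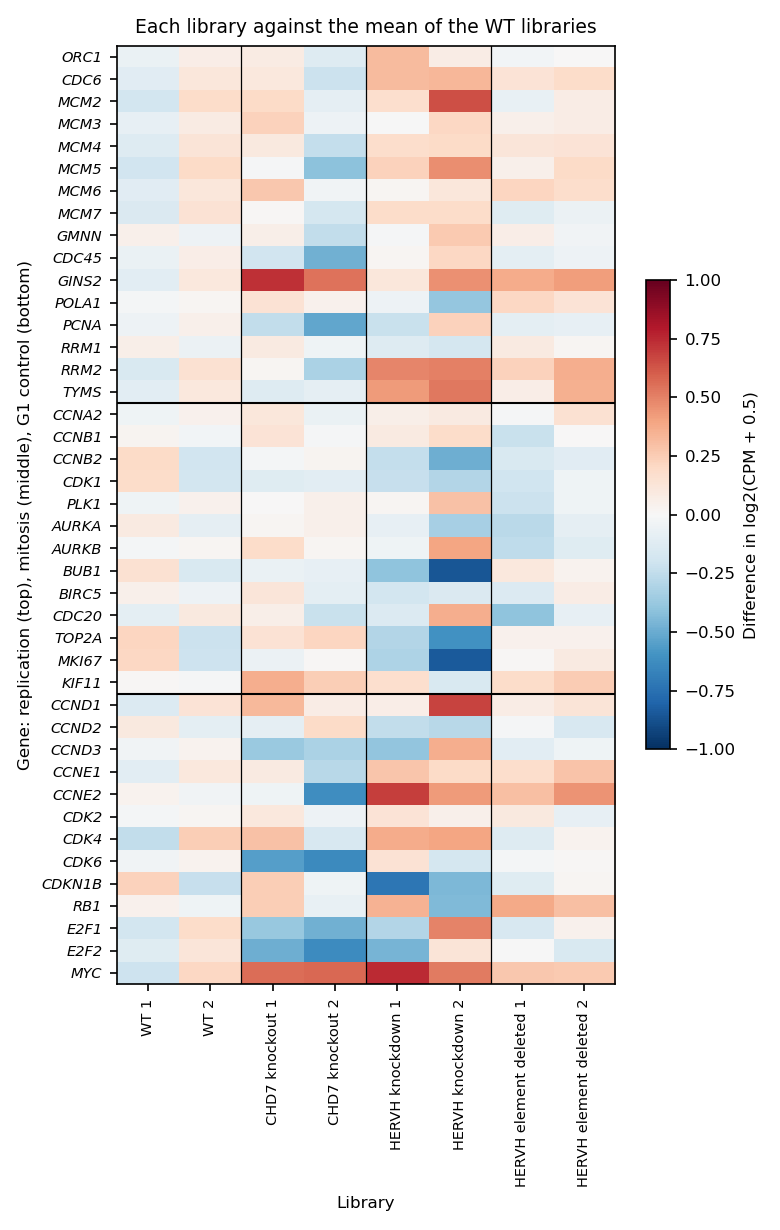
Difference of each library from the mean of the WT libraries in log2(CPM + 0.5) for the 42 tested genes, by class. Red is above the WT mean and blue below. Replication genes are mostly red in the HERVH knockdown libraries, the blue mitosis genes there are led by BUB1 and MKI67 in replicate 2, and the HERVH element deleted libraries are pale throughout.

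A wider list of other cell cycle genes, chosen by role, gave the surroundings of the 44. Of its 128 genes 127 were matched and 126 tested. edgeR called 2 of them in CHD7 knockout cells (1.59%, against 1.81% of all genes) and 2 in HERVH knockdown cells (1.59%, against 2.15%). In HERVH element deleted cells it called 0, against 0.0724% of all genes. There, 4 genes (3.2%) had an unadjusted p below 0.05, against 2.63% of all genes. None of the 126 was a DEG against WT by the rule of the study. Between HERVH knockdown and CHD7 knockout cells 13 were called (10.3%, against 9.44%), 4 higher and 9 lower in HERVH knockdown cells. By role, 23 of the 43 other replication genes lay above WT after HERVH knockdown and 20 below. Their median on the log2 scale was 0.05, against 0.04 over all genes tested. The rise in 14 of the 16 listed replication genes was thus not seen in this larger group. Of the 46 other mitosis genes, 14 lay above WT and 32 below, with a median of -0.12.
In CHD7 knockout cells the called genes were RBL2, a relative of RB1, with 22.3 and 18.9 CPM in WT and 42.15 and 47.7 CPM in CHD7 knockout libraries (log2 fold change 1.12, SE 0.218, FDR = 0.0178 by edgeR), and NUF2, a kinetochore subunit, with 33.6 and 22.8 CPM in WT and 52.3 and 55.2 CPM in CHD7 knockout libraries (0.93, SE 0.214, FDR = 0.0431 by edgeR). KIF14, a kinesin of cytokinesis, came next at 0.72 (SE 0.182, FDR = 0.0672 by edgeR). The expressed genes around these 3 were raised as well. The median log2 change of the 10 nearest expressed genes was 0.66 for NUF2 and 0.59 for KIF14, both on chromosome 1, and 0.41 for RBL2 on chromosome 16, and whether these neighborhoods account for the differences was not tested.
In HERVH knockdown cells the called genes were CKS2, a small subunit that binds cyclin-dependent kinases, with 51.4 and 44.7 CPM in WT and 28.5 and 23.45 CPM in HERVH knockdown libraries (log2 fold change -0.89, SE 0.177, FDR = 0.0245 by edgeR), and the MYC relative MYCL, with 37.77 and 34.3 CPM in WT and 11.1 and 20.3 CPM in HERVH knockdown libraries (-1.21, SE 0.246, FDR = 0.0270 by edgeR). The cyclin gene CCNG2 followed at -0.91 (SE 0.234, FDR = 0.0617 by edgeR). MYCL thus fell in HERVH knockdown cells, whereas MYC had a positive value there that did not pass the test. In HERVH element deleted cells all 126 genes had an FDR of 1, and ORC2, ORC3 and ORC4 of the origin recognition complex, first in the list, had log2 fold changes of 0.08, 0.10 and 0.00.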

How the data were processed

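RNA-seq of 8 H9 libraries, 2 in each of 4 conditions grouped by the sample labels, was used. After rRNA depletion and strand-specific library preparation, the authors aligned the reads with STAR to hg19, and HTSeq-count assigned them to genes of the Ensembl annotation. The versions and the strand setting are not given in the sources used here, so reads from the opposite strand may have been counted. Reads set aside as ambiguous between genes were 3.81% to 4.75% per library, leaving out reads not aligned uniquely. The deposited values are raw counts per gene. Here the 5 summary lines of each file were left out, and counts were analyzed with edgeR 4.0.16 in R 4.3.3: TMM scaling, filterByExpr, and a quasi-likelihood test in 1 fit of 8 libraries (4 residual degrees of freedom), with Benjamini-Hochberg FDR over 23474 genes. CPM and fold changes are on the TMM scale. Intervals used 13.6 total degrees of freedom. Positions and merged exons came from a GRCh37 annotation, and promoters from RefSeq. DESeq2 1.42.0, RLE scaling, no filter, 4-library fits, GC correction by loess (span 0.3), a replicate block and each replicate left out were alternatives. The procedure was tested on simulated counts with the same spread in every condition, unlike the real libraries. That test does not show how well small changes are found here. All 44 genes are accounted for, and per-library values are given for called genes and the 2 with the largest change per class and comparison, with further genes named after their values were seen. From the other cell cycle genes the DEGs, or else the 3 with the lowest FDR, are named. The genes and lists were chosen with earlier results of these data known.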

Additional observations from a re-analysis of the deposited data

How the results depend on the processing

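Of 315 values of 21 single-gene differences recomputed under alternatives, 265 kept their direction and their side of the FDR threshold of 0.05, 30 newly passed it, 19 no longer passed it and 1 reversed (TOP2A in CHD7 knockout cells, -0.033 without WT replicate 2 and up to 0.42 with any other replicate left out). The 19 lost calls all fell on the 3 differences called between HERVH knockdown and CHD7 knockout cells. These kept their call in 10 (RRM2), 9 (TOP2A) and 7 (CDK6) of 15 alternatives each. No gene met the DEG rule under any alternative run. Calls at an FDR below 0.05 were 0 in HERVH element deleted cells under every alternative run. In CHD7 knockout cells the 0 calls became 1 with DESeq2, 2 with GC correction, 2 with GC correction and the replicate block, 3 in the 4-library fit and 0 to 5 with a replicate left out. In HERVH knockdown cells the 0 calls became 2 with DESeq2, 3 without the filter, 1 with the replicate block (BUB1), 3 with GC correction, 3 with GC correction and the block, and 0 to 8 with a replicate left out. In the test over all conditions they became 4, 5, 1, 7, 4 and 0 to 17 in the same order. Between HERVH knockdown and CHD7 knockout cells the 3 calls became 7, 7, 5, 6, 7 and 0 to 19 in that order, and 0 in the 4-library fit. With 1 sample left in a condition, that sample is assumed to vary like the others. Calls over all genes rose too. In HERVH knockdown cells they went from 504 (2.15%) to 1259 (7.36%), 1499 (3.54%), 639 (2.72%), 1866 (7.95%) and 1708 (7.28%) under the first 5 of these settings. Percentages are of the genes with an FDR in that fit. In CHD7 knockout cells the share of all genes called was 1.81% in the main fit and 3.59% with DESeq2. It was 4.35% with GC correction, 3.90% with GC correction and the block, and 5.79% in the 4-library fit. Under the same first 5 settings it was 13.1%, 8.11%, 7.40%, 14.0% and 12.6% in the test over all conditions. Between HERVH knockdown and CHD7 knockout cells it was 13.6%, 7.84%, 10.2%, 15.2% and 14.0%. The causes of these changes were not tested. Over 12704 genes, deviations of same-numbered replicates correlated at 0.286, 0.427 and 0.295 between WT and HERVH knockdown, WT and HERVH element deleted, and the latter 2 conditions, and at -0.116 to -0.233 between any of them and CHD7 knockout cells. The numbers thus run together in 3 conditions and not in the fourth, no label ties them to a batch, and the unblocked fit was kept. In a fit of the CHD7 knockout and WT libraries chosen after seeing the data, pairing the replicates crosswise gave 6 calls and the labeled pairing 0. Over all genes these pairings called 8.50% and 3.23%. The limit from 3 counts covers counting error only, whereas the intervals of fold changes include the spread between replicates. HERVH transcripts, protein levels and cell cycle phases were not analysed here.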
